A study of Mus musculus with 6 samples.

Results

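Homozygous H3f3b knockout (KO) testis was set against wild-type (WT) testis across the whole transcriptome, with 2 mice of each genotype taken from 4 of the 6 samples of the study. Each WT and each KO mouse came from 1 of 2 litters, so every litter gave a WT and KO pair. The mice were 8 weeks old on a C57BL6J background, and RNA from 1 testis of each was hybridised to 1 Illumina bead array. The deletion was constitutive: H3f3b Fl/Fl mice had been mated to Zp3Cre mice, whose Cre is active in the growing oocyte, and heterozygotes were then intercrossed, so every cell of the KO mice carries the deletion. The WT group was H3f3b WT/WT, and 2 heterozygous (HET) littermates were used for normalization, for the estimate of spread and as intermediate points. One label field states an embryonic age of E12.5, but the source names and the design give 8 weeks. Of 45281 probes on the array, 20062 had a detection p-value under 0.05 on both arrays of the KO or of the WT group and were tested. They covered 14193 genes, each read at its brightest probe. Levels are log2 normalized signals, and a gene was called higher or lower at a limma adjusted p under 0.05.

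H3f3b is 1 of a pair of mouse genes, with H3f3a, that encode the histone variant H3.3. Unlike the replication-dependent H3 histones, which are made in S phase from clustered genes, H3.3 is made throughout the cell cycle and is placed into chromatin outside of replication. In the testis H3.3 takes part in the remodelling of the sex chromosomes in meiosis and in the replacement of histones by transition proteins and protamines in spermatids. A testis holds germ cells from spermatogonia to elongating spermatids, Sertoli cells that support them inside the tubules, and Leydig, peritubular and immune cells outside. In bulk RNA, fewer cells of a type and less RNA per cell cannot be told apart, and this holds for every result below.

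The upstream sequences of H3f3b and of the 3 genes with the next largest falls are shown because these members carried the largest changes. RefSeq (GRCm38.p6) gave the 250 bases before the start of each gene, and all 4 genes matched by symbol. Capitals mark matches, on either strand, to the TATA box (letters TATAAA), to the CCAAT box (letters CCAAT) and to the GC box (letters GGGCGG). The intervals are chr11:116024505-116024754 on the minus strand for H3f3b, chr3:96246435-96246684 on the plus strand for H3c14, chr3:96268404-96268653 on the plus strand for H3c13 and chr17:88626305-88626554 on the plus strand for Ston1.
H3f3b: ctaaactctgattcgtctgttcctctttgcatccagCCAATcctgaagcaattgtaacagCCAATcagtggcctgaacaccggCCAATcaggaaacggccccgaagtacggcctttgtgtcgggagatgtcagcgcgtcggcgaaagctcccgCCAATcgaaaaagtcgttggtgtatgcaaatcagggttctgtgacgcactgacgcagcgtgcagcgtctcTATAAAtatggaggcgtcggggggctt
H3c14: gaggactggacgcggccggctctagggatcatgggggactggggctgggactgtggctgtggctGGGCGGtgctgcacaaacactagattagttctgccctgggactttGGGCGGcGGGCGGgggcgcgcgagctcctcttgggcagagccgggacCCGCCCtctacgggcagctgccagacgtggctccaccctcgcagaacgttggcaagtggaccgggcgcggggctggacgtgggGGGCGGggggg
H3c13: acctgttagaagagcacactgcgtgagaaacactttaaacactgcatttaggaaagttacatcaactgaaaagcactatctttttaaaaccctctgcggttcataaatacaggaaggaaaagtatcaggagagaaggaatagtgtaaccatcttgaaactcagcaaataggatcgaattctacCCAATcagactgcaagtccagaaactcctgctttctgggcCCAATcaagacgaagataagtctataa
Ston1: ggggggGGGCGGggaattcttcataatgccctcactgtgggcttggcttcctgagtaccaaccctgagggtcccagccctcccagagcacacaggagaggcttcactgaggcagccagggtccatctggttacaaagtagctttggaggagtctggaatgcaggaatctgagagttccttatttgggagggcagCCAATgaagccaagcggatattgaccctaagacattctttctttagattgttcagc
The H3f3b stretch held 4 CCAAT boxes and a TATA box 27 bases before the start. The H3c14 stretch held 5 GC boxes and no CCAAT box, whereas that of H3c13 held 2 CCAAT boxes, at 67 and 27 bases, and no GC box. In an alignment of the H3c14 and H3c13 stretches, 42.4% of columns were identical with gaps counted (125 identities, 80 mismatches and 90 gaps). Ston1 held a CCAAT box 56 bases before its start and a GC box at 244. Over the 27025 promoters in the same table, 34.5% held a CCAAT box, 32.9% a GC box and 12.97% a TATA box within 250 bases. The cyclic AMP response element TGACGTCA (1.62% of promoters) and the NR5A site AAGGTCA (4.05%) had no match in these 4 stretches. A match is a match of letters only, and these arrays do not measure binding.

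Detected probes numbered 19809 to 20188 in WT and 20682 to 21323 in KO, and the summed deposited signal lay between 17052222.1 and 17273329.6 on these 4 arrays. The brightest H3f3b probe was at 11.79 and 11.73 in WT mice, 11.10 and 10.96 in HET mice and 4.43 and 4.28 in KO mice, and was undetected on both KO arrays. With the background correction used, the KO level was at least 142-fold below WT (log2 change -7.40, SE 0.14, limma adjusted p = 1.38e-08). The deposited signals, which include background, were 3810.8 and 3535.3 in WT mice and 96.6 and 93.0 in KO mice. A second, dim H3f3b probe was also called lower (log2 change -0.75), and the mean over both probes fell by 4.08 on the log2 scale. Spermatid transcripts were bright on every array: the sums of 11 elongating spermatid markers lay between 149691 and 172856 normalized signal units. The testis label and the adult age therefore have their defining transcripts in all 6 samples. Of 7 epididymis markers 6 did not pass the detection p-value filter, including Lcn5, Lcn8 and Crisp1. The other, the lipocalin Lcn2, was bright on every array (12.62 to 12.98).

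Loss of H3f3b was accompanied by many modest changes and few large ones. Of 14193 genes, 1144 were called (8.06%): 401 were higher (2.83%) and 743 lower (5.23%) in KO. The median called rise was 1.56-fold and the median called fall 1.68-fold. At 2-fold or more, 28 genes were higher and 113 lower. The smallest called differences were 0.50 in each direction, and the middle of all genes lay close to 0 (median log2 change 0.05, with 5th and 95th percentiles of -0.63 and 0.51). Counted by probe, 1471 of 20062 were called (7.33%), 486 of them higher (2.42%) and 985 lower (4.91%). This balance changed with the scaling. With quantile normalization 33.0% of the called probes were higher, with median scaling 54.4% of 1813, and with cyclic loess 23.8% of 1602. Median scaling also shifted the median change over all probes from 0.04 to 0.12.

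**Figure D1:**
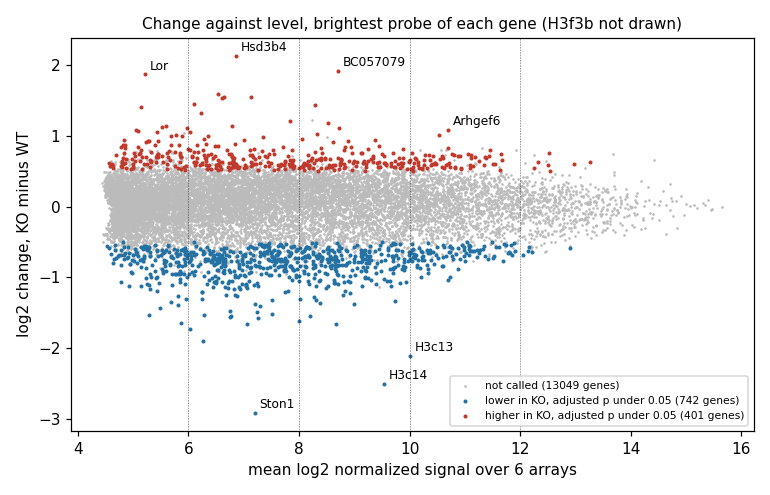
Each point is a gene at its brightest probe, with its mean log2 normalized signal over 6 arrays on the x axis and its log2 change, KO minus WT, on the y axis; called genes are red (higher) or blue (lower, with H3f3b not drawn), and dotted lines mark the level classes. Called falls reach further than called rises, and few genes above a level of 12 are called.

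The largest falls after H3f3b were in Ston1, a stonin family endocytic adaptor, and in a pair of clustered histone H3 genes. Ston1 stood at 8.53 and 8.54 in WT mice, 7.46 and 7.44 in HET mice and 5.60 and 5.62 in KO mice. The groups do not overlap, the HET mice lie between them, and mice of 1 genotype are nearly alike. The fall was 7.57-fold (log2 change -2.92, SE 0.13; limma adjusted p = 1.8e-05). H3c14 (deposited as Hist2h3c1) stood at 10.62 and 10.64 in WT mice, 9.63 and 10.07 in HET mice and 8.17 and 8.07 in KO mice, a fall of 5.67-fold (SE of the log2 change 0.16; limma adjusted p = 3.73e-04). Its other kept probe differed by -0.20 and was not called, and the mean over both probes fell by 1.35 on the log2 scale. H3c13 stood at 10.95 and 10.91 in WT mice, 10.10 and 10.42 in HET mice and 8.76 and 8.88 in KO mice, a fall of 4.31-fold (SE 0.15 on the log2 scale; limma adjusted p = 5.39e-04). Both genes were separated by genotype in each litter, and for both the HET mouse of litter 1 was nearer KO than that of litter 2. These H3 genes are near-identical in their coding sequence, so signal shared between their probes is uncertain.

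The next falls were in genes of unrelated roles. Angptl7, a secreted angiopoietin-like protein, fell 3.73-fold (limma adjusted p = 0.0256), from 7.83 and 6.96 in WT to 5.99 in the KO mouse of litter 1 and a lower level in that of litter 2, with HET mice at 6.27 and 5.53. Galnt17, of a glycosyltransferase family, fell 3.32-fold from 6.40 and 6.96 to 4.77 and 5.13, and Art1, an ADP-ribosyltransferase, 3.12-fold from 6.69 and 6.37 to 5.03 and 4.75 (limma adjusted p = 0.0105 and 0.00282). Hs3st3b1, a heparan sulfate sulfotransferase, fell 3.16-fold (0.00494), but a dimmer Hs3st3b1 probe differed by -0.40 and was not called. Falls of -1.66 to -1.56 in 4930455F16Rik, Hspbap1, Rundc3a and Nudt12os came before Palld on the log2 scale. Palld encodes palladin, a scaffold of actin bundles. It was at 8.88 and 8.93 in WT mice, 8.34 and 8.29 in HET mice and 7.32 and 7.38 in KO mice, so that the KO mice lay well below every other mouse. Its fall was 2.94-fold (SE 0.13 on the log2 scale; limma adjusted p = 0.00141), and a further Palld probe was also called lower. Npb, the precursor of the secreted peptide neuropeptide B, was at 8.05 and 8.25 in WT mice, 7.62 and 7.91 in HET mice and 6.53 and 6.73 in KO mice. The WT and KO groups do not overlap, and the litter 2 mouse is the higher of each genotype. The fall was 2.86-fold (SE 0.16; limma adjusted p = 0.00369).

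Prox1, the homeobox-type factor best known from lymphatic endothelium, fell 2.82-fold (limma adjusted p = 0.0181) but with a wider spread: 7.60 and 8.18 in WT against 6.27 and 6.52 in KO. Cyb5r2, a cytochrome b5 reductase, fell 2.61-fold from 7.82 and 7.77 to 6.32 and 6.50, and Cdca7l, a relative of the cell-division gene Cdca7, fell 2.65-fold from 7.83 and 8.05 to 6.47 and 6.59. In all 3 genes the highest KO value was below the lowest WT value by more than 1. Fam50b fell by 1.38 on the log2 scale from 9.41 and 9.64 to 8.12 and 8.18. Amn, which encodes the amnionless partner of the cubilin receptor, fell 2.49-fold, with KO values of 6.41 and 6.94 against 7.96 and 8.03 in WT. Hspbap1, whose product binds a small heat shock protein, and Rundc3a fell 3.08-fold and 2.97-fold. Adjusted p-values in limma for these 6 ran from 0.00227 to 0.0156.

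Rises were fewer and smaller. Hsd3b4, a hydroxysteroid dehydrogenase, was at 5.88 and 6.12 in WT mice, 6.28 and 6.64 in HET mice and 8.03 and 8.26 in KO mice, a rise of 4.40-fold (SE 0.17; limma adjusted p = 0.00121). Here the HET mice sit near WT and the KO mice stand apart. BC057079 rose 3.79-fold, from 7.77 and 7.72 in WT through 8.69 in both HET mice to 9.73 and 9.61 in KO (limma adjusted p = 3.82e-04). Ampd1, the AMP deaminase of muscle, rose 3.02-fold from a wide WT pair (5.32 and 6.30 to 7.32 and 7.49; limma adjusted p = 0.018). Snai2, a transcriptional repressor of epithelial genes, was at 5.83 and 5.99 in WT mice, 6.71 and 6.42 in HET mice and 7.49 and 7.42 in KO mice, a rise of 2.93-fold (SE 0.15; limma adjusted p = 0.00264). Paox, the polyamine oxidase that returns acetylated polyamines to spermidine and putrescine, was at 8.35 and 8.20 in WT mice, 8.56 and 8.43 in HET mice and 9.39 and 9.39 in KO mice. The rise was 2.16-fold (SE 0.13; limma adjusted p = 0.00691), the KO mice were alike, and both other Paox probes were called higher too.

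The vomeronasal receptor gene Vmn1r181 rose 2.91-fold, from 5.99 and 6.15 to 7.81 and 7.42, LOC229665 rose 2.93-fold, and Cited4, a transcriptional cofactor, rose 2.32-fold, from 7.27 and 7.28 to 8.51 and 8.48 (all at limma adjusted p = 0.00691). Alk, a receptor tyrosine kinase, rose 2.20-fold, from 6.39 and 6.29 to 7.62 and 7.34. Fkbp10, a prolyl isomerase of the endoplasmic reticulum that acts on collagen, rose 2.18-fold, from 4.88 and 5.02 to 6.29 and 5.86. Sult2a2, a hydroxysteroid sulfotransferase, rose 2.21-fold with a wider spread in both groups (5.31 and 4.78 in WT, 5.97 and 6.41 in KO). Each of these has KO values above both WT values, with limma adjusted p between 0.0102 and 0.0213. Ly9, a SLAM family receptor of lymphocytes, rose 2.09-fold (5.63 and 5.43 in WT, 6.59 and 6.59 in KO; limma adjusted p = 0.016). Arhgef6, a GTPase exchange factor, rose 2.12-fold at its brightest probe (10.28 and 10.18 to 11.29 and 11.34; limma adjusted p = 0.00691), while its other probe differed by -0.28 without passing. Among called genes with more than 1 kept probe (293), the other probes all had the same sign in 241, another was called in 103, and none had the same sign in 26.

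**Figure D2:**
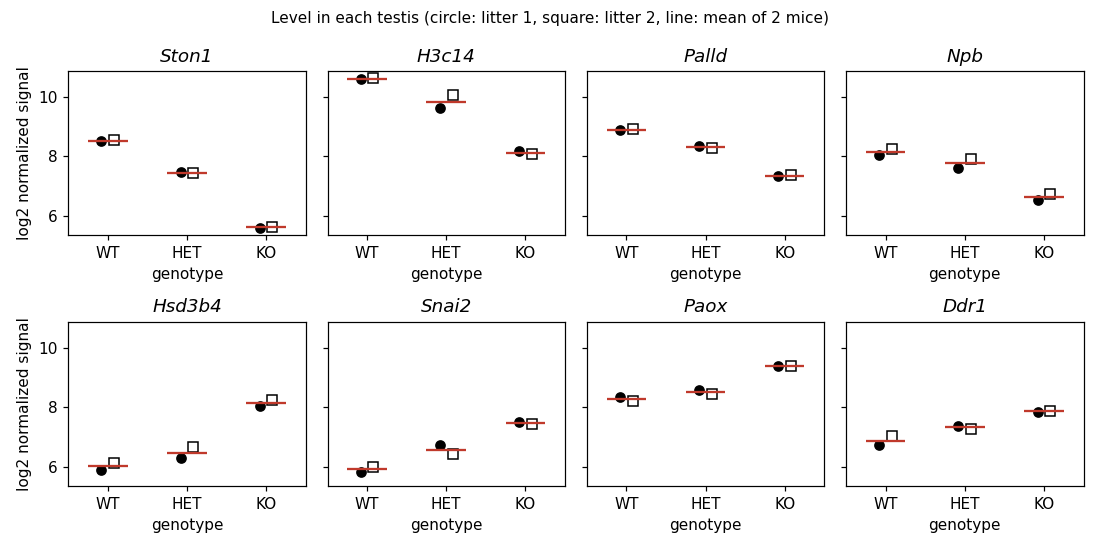
Log2 normalized signal (y axis) of 8 genes in each WT, HET and KO mouse. Litter 1 is drawn as filled circles, litter 2 as open squares and the mean of 2 mice as a line. All panels share the same y axis. In each panel both KO mice lie outside the range of both WT mice, and the HET means fall between the WT and KO means.

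Histones and their modifying enzymes moved as follows. The counts of these and the later families stand beside 8.06% of all genes called, 2.83% higher and 5.23% lower. Of 54 core and linker histone genes measured, 9 fell and 1 rose (18.5% called against 8.06% of all genes), with a median log2 change of -0.11 against 0.05 over all genes. Beside H3c14 and H3c13, H3c10 fell 2.10-fold (10.38 and 10.44 to 9.33 and 9.34; limma adjusted p = 0.00691) and the H2B gene H2bc22 fell 1.63-fold (limma adjusted p = 0.0223). The rise was in H2al3, of the H2A variant family that spermatids use (1.68-fold; limma adjusted p = 0.0345). The list was chosen with results of these arrays known, so the count is no independent evidence of a direction. The count lower stayed between 8 and 17 under the other background corrections and scalings, and was 2 when the litter 1 KO array or the litter 2 WT array was left out. Of 51 histone methylases and demethylases 4 rose and 2 fell, with 2 to 17 rises under the other background corrections and scalings. The arginine methyltransferases Prmt1 (1.52-fold; limma adjusted p = 0.0329) and Prmt5 (1.51-fold; 0.0326) rose, while Prdm8 (1.79-fold; 0.0147) and the histone H3 demethylase Kdm6b (1.46-fold; 0.0386) fell. Of 41 chromatin remodellers 1 was called.

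Transcription factors moved in both directions. Of 54 homeobox genes 6 rose and 5 fell (20.4% called). Hoxa5 and Hoxd10, which pattern the embryo along its axis, rose, and Lhx1 (2.48-fold), the POU factor Pou2f2 (2.15-fold) and Dlx6 (1.95-fold) fell (limma adjusted p = 0.0118, 0.0147 and 0.018). Of 45 Sox, Fox, Gata and Klf factors 4 fell and 0 rose. These were Klf2 and Klf4 (1.71-fold and 1.70-fold; both limma adjusted p = 0.0286), Foxk2 (1.70-fold; 0.0253) and Foxj1, the master regulator of motile cilia (log2 change -0.58; 0.0348). Under the other background corrections and scalings 4 or 5 were lower and up to 6 higher, and the call for Foxj1 ended in 4 of those 5 settings. Of 197 Zfp zinc finger genes 10 rose and 11 fell (10.7% called), a balance that turned to 14 and 4 under median scaling. Zfp626 fell 2.24-fold (limma adjusted p = 0.0105) and Zfp637 rose 1.76-fold (limma adjusted p = 0.0242).

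Calls among proteases and their inhibitors differed between families. Of 61 serine proteases and serpins 1 rose and 2 fell (4.92% called). Of 41 ADAM and matrix metalloprotease genes (inhibitors of the TIMP family among them) 8 fell and 1 rose, and the count lower was 7 to 10 under the other background corrections and scalings. The family median was -0.03, so the falls were in a minority of members. ADAM proteins are membrane proteases and their relatives, many of them made mainly in the testis. Adam29 went from 8.96 and 9.16 in WT to 8.38 and 8.28 in KO (1.67-fold; limma adjusted p = 0.0253). Adam6a fell 1.79-fold and Adam6b 1.87-fold (limma adjusted p = 0.0179 and 0.018), and Adamts9, a secreted protease of matrix proteoglycans, fell 1.86-fold (0.0208). The rise was in Mmp14, a membrane-bound collagenase (1.51-fold; limma adjusted p = 0.0381), which was not called with cyclic loess. Of 18 cathepsins and cystatins 5 rose and 0 fell (27.8% called, median 0.27), and 4 to 7 rose under the other background corrections and scalings. They were the lysosomal protease Ctsb (1.61-fold; limma adjusted p = 0.0244) and the protease inhibitors Cstb (1.66-fold; 0.0222), Cst3 (1.64-fold; 0.0291), Cst9 (1.52-fold; 0.0355) and Cst12 (log2 change 0.58; 0.0433). Cst3 stood at 11.06 and 11.25 in WT mice, 11.14 and 11.39 in HET mice and 11.79 and 11.94 in KO mice, so that the HET mice overlapped WT and the KO mice were above both. Cst9 and Cst12 are known from Sertoli cells. The summed level of 12 Sertoli markers went from 17769 to 18056 in WT to 26871 to 27489 in KO. Cst12 is 1 of those 12, so the sum is not separate from this group. Its part in the result was not tested.

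Signalling genes follow in the order of receptors, regulators and targets. Of 24 receptor and cytoplasmic tyrosine kinases in a list that does not hold Alk, 5 rose and 0 fell (20.8% called), and 22 had a positive difference. Lck, a kinase of T cell signalling, rose 2.51-fold (5.72 and 5.58 in WT, 7.09 and 6.86 in KO; limma adjusted p = 0.00979). The collagen receptor Ddr1 rose 1.98-fold from 6.72 and 7.02 to 7.83 and 7.89 (limma adjusted p = 0.0147), the platelet-derived growth factor receptor Pdgfra 1.93-fold (0.0155), and Axl, a receptor for phagocytic signals, 1.55-fold (0.0295). Igf1r, the IGF receptor, was at the edge of the threshold (1.43-fold; 0.0489). Under the other background corrections and scalings 4 to 6 rose and 0 fell. Of 111 G proteins, small GTPases and their regulators 9 rose and 4 fell, with 8 to 27 rises under the other background corrections and scalings. Beside Arhgef6, the ARF exchange factor Cyth1 rose 2.73-fold and the GTPase activator Arhgap8 2.16-fold, while Arl13b, a GTPase of cilia, fell 2.12-fold (limma adjusted p = 0.0156, 0.0213 and 0.018). The other Cyth1 probe differed by -0.04, and the call for Arhgap8 ended when its probes were averaged. In the TGF-beta, BMP and activin pathway 2 of 31 genes rose and 2 fell: the inhibin subunit Inha (1.70-fold; limma adjusted p = 0.0253) and the signal transducer Smad3 (1.59-fold; 0.0276) were higher, and the inhibitory Smad6 (2.01-fold; 0.0213) and the receptor-regulated Smad9 (1.61-fold; 0.0333) lower. In the WNT, hedgehog and Notch pathways the ligand Dhh rose 1.58-fold, and the receptor Notch4 and the target Hey1 fell 1.62-fold and 1.49-fold (limma adjusted p = 0.0304, 0.0307 and 0.0443), 3 calls among 25 genes.

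Cell-cycle and cytoskeletal members were mixed. Of 35 cyclins and cell-cycle inhibitors 3 fell and 1 rose. Rbl2, a pocket protein related to the retinoblastoma protein, fell 2.42-fold, from 8.71 and 9.02 to 7.39 and 7.79 (limma adjusted p = 0.0114), E2f5 fell 1.61-fold (0.0284) and Ccnd3 1.77-fold (0.0434), whereas the inhibitor Cdkn1c rose 1.68-fold (0.0258). Tropomodulins cap the pointed ends of actin filaments, and 3 were called. Tmod2 fell 2.49-fold (8.90 and 9.20 in WT, 8.05 and 8.22 in HET, 7.69 and 7.79 in KO; limma adjusted p = 0.00657) and Tmod4 fell 1.80-fold (0.0179), while Tmod3 rose 1.70-fold (0.0361). The Arp2/3 complex subunits Arpc3 and Arpc5, which nucleate actin branches, rose by 1.03 and 0.61 on the log2 scale (limma adjusted p = 0.0147 and 0.0299). Of 34 tubulins, tektins and tubulin ligases 4 fell and 1 rose. The tubulin ligases Ttll3 and Ttll8 fell 2.07-fold and 1.83-fold and the sperm tektin Tekt5 fell 1.72-fold, while the broadly used tubulin Tubb5 rose 1.67-fold (limma adjusted p = 0.0353, 0.028, 0.0206 and 0.0234). Among 28 dyneins and dynactins, the axonemal heavy chain Dnah9 fell 2.13-fold and the light chain Dynll2 rose by 1.00 on the log2 scale (limma adjusted p = 0.0128 and 0.0215). Of 86 genes of cilia and intraflagellar transport 0 were called with limma, and 16 had an unadjusted p under 0.05. Of 31 kinesins 0 were called and 5 had an unadjusted p under 0.05.

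Of 35 steroid and retinoid oxidoreductases 5 rose and 1 fell (17.1% called, median 0.23). Beside Hsd3b4, the aldo-keto reductase Akr1c19 rose 2.71-fold (7.56 and 7.73 in WT, 9.01 and 9.16 in KO; limma adjusted p = 0.00264) and Dhrs7 rose by 0.76 on the log2 scale (0.0182). In that family 4 to 14 rose and 0 or 1 fell under the other background corrections and scalings. The summed level of 6 markers of Leydig cells, which make steroids, was 10127 to 11005 in WT mice, 8497 to 11609 in HET mice and 15443 to 16357 in KO mice. The brightest of them, Cyp17a1 and Insl3, weigh most in this sum. By gene, 5 of 6 had a positive difference and 1 of 6, Cyp17a1, was called, while Star differed by -0.07. Hsd3b1, Hsd3b6 and Nr5a1 did not pass the detection p-value filter. The part of Leydig cells in this result was not tested. Of 51 ABC transporters and P-type ATPases 5 rose and 0 fell (9.80% called). They included the calcium pump Atp2a3 (1.52-fold; limma adjusted p = 0.0306), Abcc10 (1.73-fold; 0.0206) and Atp13a1 (log2 change 0.66; 0.0387), and 1 fall appeared without background correction, with normexp at offset 50 and with cyclic loess. Of 209 solute carriers 10 rose and 9 fell (9.09% called, near the share of all genes). Under the other background corrections and scalings 5 to 39 rose and 8 to 15 fell. The zinc carriers Slc39a4, an importer, and Slc30a1, an exporter, both fell by 0.84 on the log2 scale (limma adjusted p = 0.018 and 0.0206). Of 30 potassium channel genes 3 fell and 0 rose (Kcna6, Kcnip2 and Kcng4, at 1.77-fold, 1.74-fold and 1.44-fold), and the call for Kcng4 (limma adjusted p = 0.0451) ended with median scaling.

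In sugar metabolism the hexokinases went opposite ways. Hk1, the hexokinase with germ-cell-specific forms, fell 2.06-fold, from 9.83 and 9.65 in WT to 8.60 and 8.79 in KO (limma adjusted p = 0.0156). Hk2 rose by 0.56 on the log2 scale, from 9.54 and 9.38 to 9.98 and 10.05 (0.0397), and the lactate dehydrogenase subunit Ldhb (1.64-fold; 0.0256) and the pentose phosphate enzyme Taldo1 (1.56-fold; 0.0306) also rose. In all, 4 of 37 genes of the list rose and 2 fell, with 4 to 12 and 3 to 6 under the other background corrections and scalings. The aldehyde and alcohol dehydrogenases were similarly divided, with Aldh2 and Adh1 higher (1.58-fold and 1.84-fold) and Aldh3b2 and Adh7 lower (1.86-fold and 1.88-fold) among 20 genes, at limma adjusted p between 0.0225 and 0.0359. Of 82 respiratory chain genes 4 rose and 1 fell (6.10% called), with 2 to 17 rises under those settings. Cox7a1 (1.84-fold; limma adjusted p = 0.0197) and Cox8a (1.61-fold; 0.0355) were among the rises.

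Most genes of the large housekeeping complexes had small positive differences whose calls depended on scaling. Of 79 ribosomal protein genes 73 had a positive difference (median 0.16), but 3 were called: Rpl10a, Rpl10 and Rpl39 (log2 changes of 0.51 to 0.54; limma adjusted p = 0.0414 to 0.0492), and 0 were called with median scaling, where the family median was 0.07 beside a shift of all probes of 0.12. Of 70 mitochondrial ribosomal protein genes 59 had a positive difference (median 0.21) and 1, Mrps17, was called (log2 change 0.62; limma adjusted p = 0.0297). Of 44 proteasome genes 37 had a positive difference (median 0.19), 0 were called and 8 had an unadjusted p under 0.05 with limma.

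**Figure D3:**
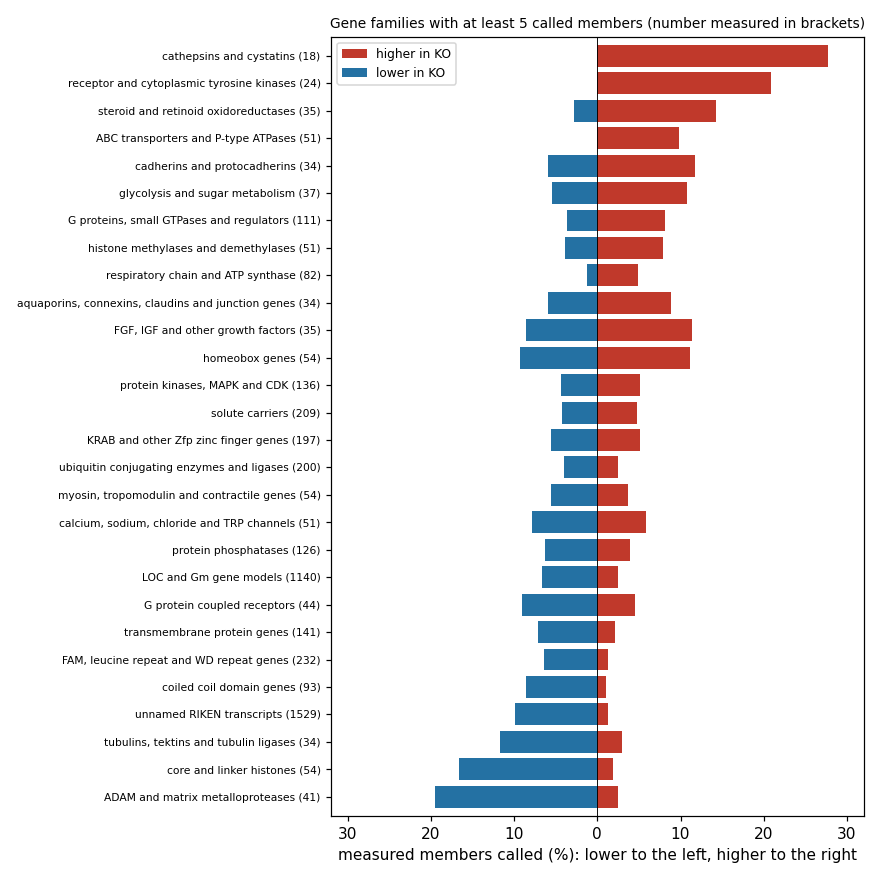
Gene families with at least 5 called members, with the percent of measured members called higher (red, to the right) or lower (blue, to the left) in KO; the number measured is in brackets. Cathepsins and cystatins head the rises with 27.8%, and ADAM and matrix metalloproteases, with 8 of 41, and histones, with 9 of 54, lie at the lower end.

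Transcripts without a functional name had more calls lower than higher. Of 1529 genes known by RIKEN clone names, 152 were lower and 19 higher (9.94% and 1.24%), and of 1140 LOC or Gm gene models 76 were lower and 28 higher. Among 11524 genes with other symbols, 515 were lower and 354 higher (4.47% and 3.07%). Of 443 genes deposited under RIKEN clone names that begin with 1700, a prefix of an adult testis library, 83 were lower and 6 higher (18.7% and 1.35%). The shares were similar for 684 genes deposited under clone names that begin with 49, with 123 lower and 7 higher (18.0% and 1.02%). Both sets include genes that now have another symbol, such as Tex48 and Pmis2. The excess of falls over rises among the RIKEN clones held under median scaling (129 lower, 40 higher) and with cyclic loess (181 lower, 16 higher). Examples are 4930455F16Rik (9.35 and 9.37 in WT, 7.92 and 7.48 in KO; 3.16-fold), 1700096P03Rik (2.61-fold) and 1700057H15Rik (2.48-fold), with limma adjusted p of 0.00282, 0.00264 and 0.00564. The difference in shares between kinds of symbol was not tested.

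The share of genes called differed by level, in an order that depended on the settings. Genes were grouped by their mean level over all 6 arrays, with edges at 6, 8, 10 and 12. In the dimmest class, under 6, 231 of 4829 genes were called (4.78%), 142 lower and 89 higher. The class from 6 to 8 had 278 lower and 130 higher of 4139 (9.86%), that from 8 to 10 had 224 and 110 of 3034, and that from 10 to 12 had 94 and 65 of 1599 (9.94%). Of 592 genes at 12 and over, 5 were lower and 7 higher (2.03%). This low share at the top was not kept in every setting: 66 were lower and 51 higher there when no background was corrected, 57 and 36 with normexp at offset 50, 78 and 59 with an intensity trend and 117 and 29 with the series matrix values. In the dimmest class the same settings gave 74 and 34, 107 and 63, 163 and 104, and 39 and 106. With the main setting, typical sizes of called changes were alike across the classes, with median falls of 0.63 to 0.78 and median rises of 0.60 to 0.71 on the log2 scale.

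The direction within a class also depended on scaling. Under median scaling the share of called genes that were lower went from 61.5% to 36.3% in the dimmest class, from 68.1% to 34.0% at 6 to 8, and from 41.7% to 96.4% (27 of 28) at 12 and over. The cyclic loess shares were 66.4%, 79.6% and 53.3%. At the top of the range the 3 called rises with the smallest p were in MGC118250 (1.55-fold; limma adjusted p = 0.0299), in Clu, the secreted chaperone clusterin (12.97 and 13.01 in WT, 13.61 and 13.63 in KO; 1.55-fold; limma adjusted p = 0.027), and in Cldn11, the tight junction claudin of the blood-testis barrier (1.51-fold; 0.0323). None of these 3 was called with median scaling. The falls there were in 1700009N14Rik, Tex48 and Pmis2 (log2 changes of -0.58, -0.64 and -0.63; 0.0353 to 0.0382). Between 10 and 12, the phosphatase Ppm1m rose 1.79-fold, from 10.38 and 10.38 to 11.17 and 11.27 (0.0156). Sizes in the 2 lower classes depended on the background correction. The median absolute change of the 231 called genes under 6 was 0.72 with the main setting and 0.26 without background correction. For the 408 called genes at 6 to 8 it was 0.74 and 0.45, and for the 159 at 10 to 12 it was 0.65 and 0.62. Ston1 and Hsd3b4 lie at 6 to 8. Over all settings run, their log2 changes ranged from -3.02 to -1.755 and from 1.35 to 2.26.

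**Figure D4:**
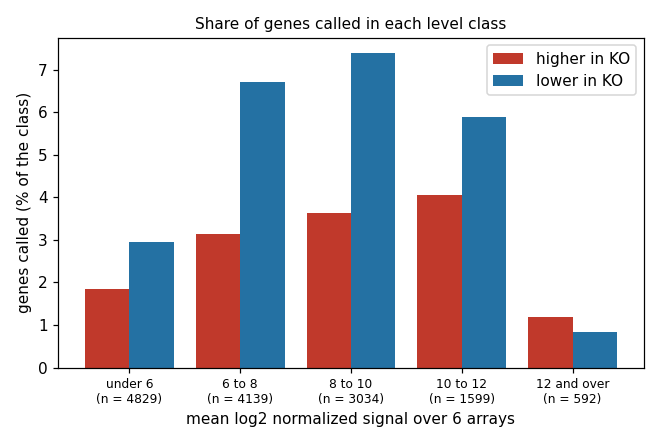
Percent of genes called higher (red) or lower (blue) in KO in each of 5 classes of mean log2 normalized signal, with the number of genes under each class. The share lower peaks at 8 to 10 and the share higher at 10 to 12, and both are at their smallest at 12 and over.

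Some transcripts crossed the detection limit. In KO, 350 genes were detected on both arrays but on neither WT array, of which 24 were called higher. In the other direction 119 were detected in both WT and no KO mouse, of which 22 were called lower. These are 6.86% and 18.5% of the respective sets, beside 2.83% of all genes called higher and 5.23% called lower; detection on both arrays of 1 group alone already favours a difference. Folds are bounds, set against the lowest detected signal. That signal was 4.66 and 4.70 on the WT arrays and lower, at 4.59 and 4.63, on the KO arrays. Its part in the 2 counts was not tested. Most bounds were small, with medians of 0.12 and -0.27 on the log2 scale. Only 9 of the 350 and 8 of the 119 reached 1.5-fold. Lor, the gene of loricrin, a protein of the outer epidermis, was at 4.43 and 4.45 in WT mice, 4.70 and 5.08 in HET mice and 6.49 and 6.14 in KO mice, at least 3.10-fold higher in KO. Hoxa5 was at 4.54 and 4.39 in WT and 5.85 and 5.90 in KO, at least 2.29-fold higher. Both were detected in the HET mice too. The amino acid transport subunit Slc3a1, the metalloreductase Steap1, the glutamate receptor subunit Gria1, the muscle acetylcholine receptor subunit Chrna1 and S100a10 were at least 1.57-fold to 1.65-fold higher. In the other direction Trh, the precursor of thyrotropin-releasing hormone, was at 5.49 and 5.73 in WT and 4.54 and 4.44 in KO, at least 2.00-fold lower. Prrt4 was also at least 2.00-fold lower, the leukocyte receptor Cd84 1.67-fold, the prohormone convertase Pcsk2 1.64-fold, and the membrane skeleton gene Ank1 1.63-fold. Over these 12 genes the limma adjusted p-values lay between 0.00264 and 0.0417. All of them sit in the dimmest class, where sizes depend on the background correction.

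The litter pairs gave matching pictures, with the exceptions described here. For each gene the KO minus WT difference was taken within litter 1 and within litter 2, which share no mouse. Over all 14193 genes 72.7% had the same sign in both pairs (r = 0.63 across genes, which are not independent replicates), and this share rose from 62.1% in the dimmest class to 81.4% at 8 to 10. All 1144 called genes had the same sign in both pairs, which the choice by call largely fixes. At 1.5-fold or more, 714 genes were higher and 1078 lower in the litter 1 pair, and 667 and 1021 in the litter 2 pair. In both pairs 181 were higher and 506 lower, and 66 of these 687 were not called.

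Among called genes the pairs differed most for Myo15b, Apobec4, Hoxd10, LOC384329 and LOC329277. Myo15b, an unconventional myosin, differed by -1.95 in litter 1 and -0.74 in litter 2, and Apobec4, a putative cytidine deaminase, by -1.63 and -0.56. Hoxd10 differed by 0.56 in litter 1 and 1.59 in litter 2. LOC384329 (-1.59 and -0.37) lost its call with litter as a replicate block, and the others kept theirs. At 1.5-fold or more, 14 genes went in opposite directions. Of these 7 were LOC models with close identifiers and 1 shared pattern: the WT mouse of litter 1 was higher than the WT mouse of litter 2, and both KO mice lay between. LOC386144 was the widest, at 8.73 and 5.67 in WT and 7.40 and 7.68 in KO. The protease inhibitor Slpi went from 6.45 to 5.22 in litter 1 and from 5.46 to 6.69 in litter 2, and Alas2, the heme synthesis enzyme of red blood cells, from 7.71 to 6.77 and from 7.38 to 8.00. With litter as a replicate block 1995 probes were called, 1282 lower and 713 higher, of which 1459 were among the 1471 of the fit without it.

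**Figure D5:**
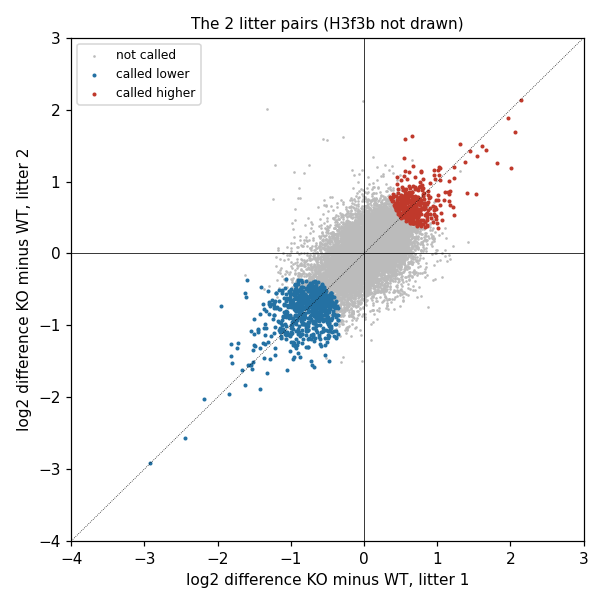
Log2 difference KO minus WT of each gene in litter 1 (x axis) and litter 2 (y axis), with H3f3b not drawn, called genes in red (higher) and blue (lower), and the dotted line marking equal differences. Every called gene has both differences on the same side of 0, and the genes that are not called spread around 0.

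The heterozygous mice lay between WT and KO for most called genes. The HET mean was between the WT and KO means in 1070 of 1144 called genes (93.5%) against 51.7% of all genes, and selecting genes for a large KO and WT difference raises this share by itself. Its median position in called genes was 30.7% of the way from WT to KO, with 32.9% for the rises and 29.3% for the falls. Over all genes the median position was 32.8%, so this figure is not particular to the called genes. Of the 112 genes that fell at least 2-fold apart from H3f3b, 111 had the HET mean between, at a median of 30.7%. Ston1 was 37.1% of the way, H3c14 31.1%, Palld 38.2% and Hsd3b4 21.4%. For H3f3b itself the figure was 9.82%, but its KO level was undetected. That position therefore depends on the background floor and is no measure of dose. Its deposited signal was 3810.8 and 3535.3 in WT mice and 2377.1 and 1833.5 in HET mice.

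Cell type markers moved alongside these differences, and their part in any of them was not tested beyond the values given. Of 12 measured Sertoli markers 6 were higher and all 12 had a positive difference, with HET sums of 19547 to 20597 between those of WT and KO. Peritubular sums over 5 markers were 4628 to 4756 in WT and 6168 to 6460 in KO, with 0 called by limma and 2 at an unadjusted p under 0.05. Macrophage sums over 6 markers were 582 to 599 in WT and 766 to 903 in KO, with Mrc1 called. Ptprc, the pan-leukocyte marker, did not pass the detection p-value filter. Of 9 round spermatid markers 3 were lower, with sums of 30012 to 34318 in WT and 27971 to 28125 in KO. Of 11 elongating spermatid markers 0 were called by limma and 2 had an unadjusted p under 0.05, although all 11 had a negative difference and the sums were 168865 to 172856 in WT and 149691 to 152897 in KO. Spermatocyte sums over 9 markers overlapped between WT (101325 to 102562) and KO (101661 to 103649). The brightest of them, Ldhc, weighs most in these sums and lay at the top of the signal range (15.37 to 15.50). By gene, 5 of the 9 had a positive and 4 a negative difference (median 0.10), with 0 called by limma. Adipose sums over 5 markers were 767 to 913 in WT and 441 to 627 in KO, with 2 of 5 lower. Fabp4 and Plin1 did not pass the detection p-value filter.

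The number of calls rested on single arrays. Against 1471 with all arrays, 22 and 215 probes were called with the KO array of litter 1 or of litter 2 left out, 21 and 191 of them among the 1471. With the WT array of those litters left out, in the same order, 221 and 29 were called, 196 and 29 of them among the 1471. With 1 HET array left out 1018 were called, 967 of them among the 1471. Of the 145 called genes followed through all settings, 17 were called with the litter 1 KO array left out and 21 with the litter 2 WT array left out, so most calls of single genes above need both of those arrays. Those called in every setting run were H3f3b, Ston1, H3c14, H3c13, 4930455F16Rik, Hspbap1, Rundc3a, Palld, 1700096P03Rik, Art1, Akr1c19, Snai2, Lor, BC057079, LOC229665 and Hsd3b4. All 145 kept their direction in every setting, which their choice by call in these same arrays largely fixes.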

How the data were processed

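Per the file headers, the deposited table gives each probe 2 values on each array, its averaged bead intensity on a linear scale and a detection p-value; per the submitters' processing notes they came from GenomeStudio, version not stated. From these, with limma 3.58.1 in R 4.3.3, signals were background-corrected (neqc, offset 16), quantile normalized over all 6 arrays and put on the log2 scale. The deposited series matrix intensity values, the same signals with 1 constant per array, served as an alternative. Arrays give signals, not counts, so their number (2 mice a genotype) limits precision.

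Probes entered the test if both KO arrays or both WT arrays had them at a detection p-value under 0.05. Limma's lmFit and eBayes were run on all 6 arrays with genotype only (3 residual and 6.20 prior degrees of freedom; two-sided; Benjamini-Hochberg over 20062 probes). The litter numbers of the labels pair the mice, so the fit was repeated with a replicate block for litter: differences between litters correlated across probes at 0.13 between WT and KO. Bounds on folds take the lowest detected signal on each array. The other background corrections and scalings were none, normexp with offset 50, median scaling, cyclic loess and the series matrix values. The fit was tested on simulated data.

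Symbols were updated through RefSeq names of GRCm38.p6 (8145 of 31508 updated, 13424 current, 9801 unmatched and kept). The members and lists were chosen with earlier results of these data known. Families were taken by symbol, and symbols that shared only letters with a family were removed after values were seen, so counts carry no test. Names were drawn, not all of them printed, from H3f3b, the 30 largest called rises and falls, up to 4 per family by smallest p, 3 per direction in each level class, the 10 largest bounds in each direction and the 5 largest differences between litter pairs. Cst12, H2al3, Igf1r and Mmp14 and the genes that went opposite ways in the litters were named after their values were seen. A gene that the rule would name is not reported here.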

Additional observations from a re-analysis of the deposited data

How the results depend on the processing

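The number of called probes (1471 with the main settings) was 2865 without background correction, 3009 with normexp at offset 50, 2837 with an intensity trend, 4240 with the series matrix values and 528 without the filter on dim probes, and lay within 1.5 times of the main count with median scaling (1813), cyclic loess (1602), a detection p-value under 0.01 (1997), the KO and WT arrays alone (1018) and litter as a replicate block (1995). Without 1 array it ranged from 22 to 1018: 22 and 215 with the KO array of litter 1 or of litter 2 left out, 221 and 29 with the WT array of those litters left out, in the same order. The lone mouse left in a group is then assumed to vary like the other groups. Of the called probes, 33.0% were higher with the main settings, 44.3% without background correction, 43.4% with normexp at offset 50, 54.4% with median scaling, 23.8% with cyclic loess and 68.5% with the series matrix values. Of 145 named called genes, all kept their direction, and 144 kept their call under the replicate block, 132 under median scaling, 85 without the filter, 17 and 52 with the litter 1 or the litter 2 KO array left out, and 50 and 21 with the WT array of those litters left out, in the same order. The cause of these changes was not tested. That all 145 kept their direction is largely fixed by their choice by call in these same arrays. Near background the size of a change depends on the background correction, and signals near the top of the range can be compressed by quantile normalization. With 2 mice a genotype and 1 array each, the p-values rest on a spread estimated over all 6 arrays, HET included. Limma moderates that spread with 1 shared by all tested probes (3 residual and 6.20 prior degrees of freedom). They therefore do not measure the spread between the WT and KO mice alone.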

Other observations

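Further gene groups moved in small numbers, beside 8.06% of all genes called. Of 16 keratin and epidermal genes measured, Lor rose and Krt88 (log2 change -1.03), Krt73 (-0.96) and Krt23 (-0.69) fell, at limma adjusted p of 0.018, 0.0219 and 0.0325 for the falls. Of 126 protein phosphatases 8 fell and 5 rose (10.3% called), with 7 to 18 and 5 to 23 under the other background corrections and scalings. The MAP kinase phosphatases Dusp1 (7.89 and 7.82 in WT, 7.09 and 6.75 in KO) and Dusp4 (-0.84) were lower (limma adjusted p = 0.018 and 0.0167). Of 93 coiled coil domain genes 8 fell and 1 rose (9.68% called). Of 232 FAM, leucine repeat and WD repeat genes 15 fell and 3 rose (7.76% called). Under the other background corrections and scalings the rises were 1 to 12 and 2 to 26. Of 34 aquaporin, connexin, claudin and junction genes 3 rose and 2 fell, the larger fall being in Nectin1, an adhesion molecule (log2 change -1.16; limma adjusted p = 0.0151).

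In 7 of the 14 genes with opposite differences in the litters, all LOC models with numbers from LOC385959 to LOC386330, the WT mouse of litter 1 was higher than every other WT and KO mouse. LOC386330, the brightest of them, was at 10.29 and 9.02 in WT and 9.41 and 9.79 in KO. Pparg, the fat cell nuclear receptor, differed by 0.87 in litter 1 and -0.75 in litter 2, and Igfbp5, an IGF-binding protein, by -0.90 and 0.77.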
